A study of Mus musculus with 40 samples.

Results

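The comparison described here set the extensor digitorum longus (EDL) muscles of rapamycin-treated TSCmKO mice (3mTSCmKO+RM) against those of vehicle-treated control littermates (3mCON), all 3 months old. It asks what remains abnormal, or ends on the other side of normal, when mTORC1 is inhibited for 3 days in muscle that lacks Tsc1. Members were chosen by their labels alone: 10 of the 40 libraries, 5 mice in each group and 1 library per mouse. All mice carried the strain label Tsc1tm1Djk/J and had both Tsc1 alleles floxed. TSCmKO mice had lost Tsc1 in skeletal muscle fibers, whereas the controls carried the floxed alleles without Cre. The sources used here name neither the promoter that drives Cre nor the sex of these mice, and the other cells of a TSCmKO muscle keep Tsc1. Rapamycin or vehicle was given by intraperitoneal injection for 3 days, at 4 mg per kg on the labels, while the study text gives a higher dose, so that the dose is uncertain. Because the comparison changes genotype and treatment together, vehicle-treated knockouts (3mTSCmKO) and rapamycin-treated controls (3mCON+RM), again 5 mice each, are set beside it.

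TSC1 holds the GTPase-activating TSC complex together, and that complex keeps the small GTPase RHEB, and through it the kinase complex mTORC1, in check. Without TSC1 in the fiber, mTORC1 stays active also in the fasted state, drives protein and ribosome synthesis and restrains autophagy, and feedback from its substrates weakens insulin signalling to AKT. Rapamycin, bound to FKBP12, blocks part of the output of mTORC1 within hours. The EDL is a fast muscle made mainly of glycolytic fibers.

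Total counts were 10988960 to 33945646 per library in 3mCON and 16817608 to 26313907 in 3mTSCmKO+RM. Levels are given as TMM-scaled CPM, counts scaled to a common library size with correction for composition. A gene was called when the adjusted p of edgeR's quasi-likelihood test (Benjamini-Hochberg over all 13543 genes tested) was below 0.05. All 10 markers of muscle fibers were present, with a summed level of 192000 to 220000 TPM in 3mCON and 204000 to 225000 TPM in 3mTSCmKO+RM. Of the 10 marker lists none had a member at 0 counts in both groups. The 12 markers of macrophages and leukocytes summed to 90.6 to 278 TPM in 3mCON and 177 to 367 TPM in 3mTSCmKO+RM, with a median log2 difference of 0.72 and 4 members called higher. That count was 1 without 3mCON replicate 2, 4 or 5 or without 3mTSCmKO+RM replicate 3, 2 without 3mTSCmKO+RM replicate 4 or 5, and 7 without 3mCON replicate 1. Among the other lists, 1 of 8 tendon markers (Scx, a tendon transcription factor) and 1 of 8 satellite cell markers (Cdh15, M-cadherin) were called higher, and 1 of 7 erythroid markers was called lower. Of 10 muscle fiber markers, 1 was called higher (Acta1, skeletal actin) and 1 lower (Pvalb, parvalbumin). The higher count was 0 with no filter or with replicate number as a term, and 3 in a fit of the 10 libraries alone. With 1 library left out it was 0 at its lowest. No member of the endothelial, adipocyte, fibroblast, Schwann cell or smooth muscle lists was called by edgeR, and 2 were lower at an unadjusted p below 0.05 (1 Schwann cell and 1 smooth muscle marker). The DESeq2 Wald test called 1 smooth muscle marker lower, and edgeR on the 3-month libraries alone called 1 fibroblast marker higher and 1 endothelial, 1 Schwann cell and 1 smooth muscle marker lower. The fibroblast list had a median of 0.39. The part of other cells in the results was not tested. In such bulk samples, fewer cells of a type and less RNA per cell cannot be told apart. A single control library, 3mCON replicate 3, lay far from the other 4 for 15 of the 175 genes considered here by name, and for 1.91% of all genes tested. Without it 2058 genes were called in place of 2260. Over all genes tested, 3mCON+RM replicate 2 (3.49%) and 3mTSCmKO replicate 4 (2.7%) stood apart more often. The classes below rest on 3mTSCmKO, in which the erythroid markers summed to 1480 to 28900 TPM, and without its replicate 4 they held 819 genes left abnormal, 103 overshooting and 789 displaced.

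Tsc1 itself (chromosome 2, 28641228 to 28691167, plus strand, GRCm38) checked the labels. Its level was 84.1, 113, 123, 129 and 134 CPM in 3mCON and 18.7, 19.1, 21.3, 21.9 and 23.2 CPM in 3mTSCmKO+RM. The groups did not overlap, and each knockout library stood below each control library. The log2 fold change was −2.48 ± 0.176 (SE, n = 5 and 5, edgeR adjusted p = 4.01e-13). In 3mTSCmKO the mean was 29.3 CPM, and 3mTSCmKO+RM was called lower than 3mTSCmKO (log2 fold change −0.49). Controls given rapamycin, 3mCON+RM, had a mean of 78 CPM beside 116 CPM in 3mCON.

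Rapamycin for 3 days left many genes of TSCmKO muscle away from the control. In 3mTSCmKO+RM 1216 genes were higher than in 3mCON (8.98% of the genes tested) and 1044 were lower (7.71%), 2260 or 16.7% in all. A change of 2-fold or more was seen in 267 of the higher genes and 164 of the lower ones. The values of the 5 and 5 libraries did not overlap for 2582 genes, 19.1% of those tested. For comparison, 19.8% of genes were called between 3mTSCmKO and 3mCON, 23.6% between 3mTSCmKO+RM and 3mTSCmKO, 10% between 3mTSCmKO+RM and 3mCON+RM, and 0.679% (92 genes) between 3mCON+RM and 3mCON. Each of these shares a group with the comparison of 3mTSCmKO+RM and 3mCON, so that they are given side by side and not as independent evidence. The main count rests on the spread over all 8 groups, and a fit of the 10 libraries alone called 3740 genes.

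The 2260 genes were sorted by how the vehicle-treated knockout stood beside the same controls. A first class of 820 genes (36.3% of the 2260, and 6.05% of all genes tested) was left abnormal, called in the same direction in 3mTSCmKO: 462 were higher and 358 lower. Rapamycin moved 100 of the 462 and 34 of the 358 towards the control without returning them to it, whereas 326 and 307 were not called between 3mTSCmKO+RM and 3mTSCmKO, and 36 and 17 were moved further away. A second class of 109 genes (0.805% of all tested) overshot, being called on the opposite side of the control in 3mTSCmKO: 38 ended higher and 71 lower than the control. The last class tied to rapamycin, of 865 genes (6.39% of all tested) was displaced, being not called in 3mTSCmKO but called against both 3mCON and 3mTSCmKO in the same direction, 468 upwards and 397 downwards. The remaining 466 genes were called beside the control alone. A gene that was not called in 3mTSCmKO is not shown to be normal there. Of the 2676 genes called in 3mTSCmKO, 1747 were no longer called beside the control, and for 1065 of these the change with rapamycin was itself called.

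Genes left abnormal at the extremes included several that rapamycin hardly touched. Snph, which encodes syntaphilin, an anchor of mitochondria in axons, held 1.57, 2.79, 2.92, 3.14 and 3.64 CPM in 3mCON and 15.7, 16.6, 19.6, 19.6 and 20.6 CPM in 3mTSCmKO+RM. The groups were far apart, and the mean of 18.4 CPM with rapamycin lay beside 18.2 CPM without it. Snph differed from the control by 2.73 ± 0.198 on the log2 scale (SE, n = 5 and 5, edgeR adjusted p = 5.63e-13) and from 3mTSCmKO by 0.02, which was not called (adjusted p = 0.958). Adamts8, a secreted metalloprotease, held 4.79 ± 2.17 CPM (SD, n = 5) in 3mCON, 28.1 ± 12.5 CPM with rapamycin and 27.9 CPM in 3mTSCmKO without it. For Hspb7, a small heat shock protein of heart and muscle, the libraries held 184, 239, 296, 312 and 540 CPM in 3mCON and 669, 1110, 1240, 1540 and 2490 CPM in 3mTSCmKO+RM. Every treated knockout exceeded every control, with a log2 fold change of 2.17 ± 0.262 (edgeR adjusted p = 1.16e-07).

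Igfn1, an immunoglobulin-domain protein of the Z-disc, was partly lowered by rapamycin and stayed high. It held 19.5, 34.3, 36.9, 44.5 and 55.8 CPM in 3mCON and 371, 393, 447, 460 and 627 CPM in 3mTSCmKO+RM, against a mean of 1360 CPM in 3mTSCmKO. No values overlapped between treated knockout and control, and the difference of 3.59 ± 0.397 on the log2 scale was called (edgeR adjusted p = 3.2e-08), as was the fall from 3mTSCmKO (log2 fold change −1.57). Rasd2, the small GTPase Rhes, fell from a mean of 218 CPM in 3mTSCmKO to 40.1 CPM, which was still above the 6.35 CPM of 3mCON. In 3mCON replicate 3 Rasd2 reached 17.2 CPM, below the lowest treated knockout at 27.4 CPM. Rab15, an endocytic GTPase, moved the other way, from 4.74 CPM in 3mTSCmKO to 10.3 ± 3.03 CPM, beside 1.53 ± 0.457 CPM in 3mCON. The largest difference of all was in Gm26870 (chromosome 9, 3000282 to 3038313, minus strand, GRCm38, annotated as lincRNA), at 28.2 ± 6.33 CPM in 3mCON and 5510 ± 1090 CPM in 3mTSCmKO+RM. It is not a protein-coding gene, although the study text limits the transcript set to these, so that what its reads represent is uncertain.

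Among genes left low, Aqp4, the water channel of the fast fiber membrane, held 49.1, 64.6, 90.1, 92 and 102 CPM in 3mCON and 6.08, 6.63, 6.64, 7.23 and 8.02 CPM in 3mTSCmKO+RM. The treated knockouts formed a narrow band, far below the controls and above the mean of 0.596 CPM in 3mTSCmKO. The difference from the control was −3.52 ± 0.238 on the log2 scale (edgeR adjusted p = 2.79e-13), after a called rise of 3.35 with rapamycin. Dkk3, a secreted protein of the Dickkopf family, held 53.2, 111, 113, 115 and 127 CPM in 3mCON and 9.15, 9.41, 11.3, 14.4 and 17.4 CPM in 3mTSCmKO+RM. Even the low control, replicate 3, lay above all treated knockouts, and the fall of 3.08 ± 0.284 (edgeR adjusted p = 4.51e-10) was not accompanied by a call for rapamycin. Pak1, a kinase of the cytoskeleton and of glucose uptake, fell from 49.8 ± 4.61 CPM (SD, n = 5) to 7.39 ± 2.60 CPM. Glb1l2, a relative of the lysosomal galactosidase gene, fell from 12.2 to 3.26 CPM and Neto2, an accessory subunit of glutamate receptors, from 7.36 to 1.60 CPM. Smox, which oxidizes spermine, fell from 136 ± 18.7 to 52.1 ± 13.7 CPM, and Mrln, a micropeptide that inhibits the calcium pump SERCA, from 26.6 ± 4.65 to 8.51 ± 2.04 CPM. In 3mTSCmKO Smox was at 56.8 CPM and Mrln at 11.5 CPM.

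**Figure D1:**
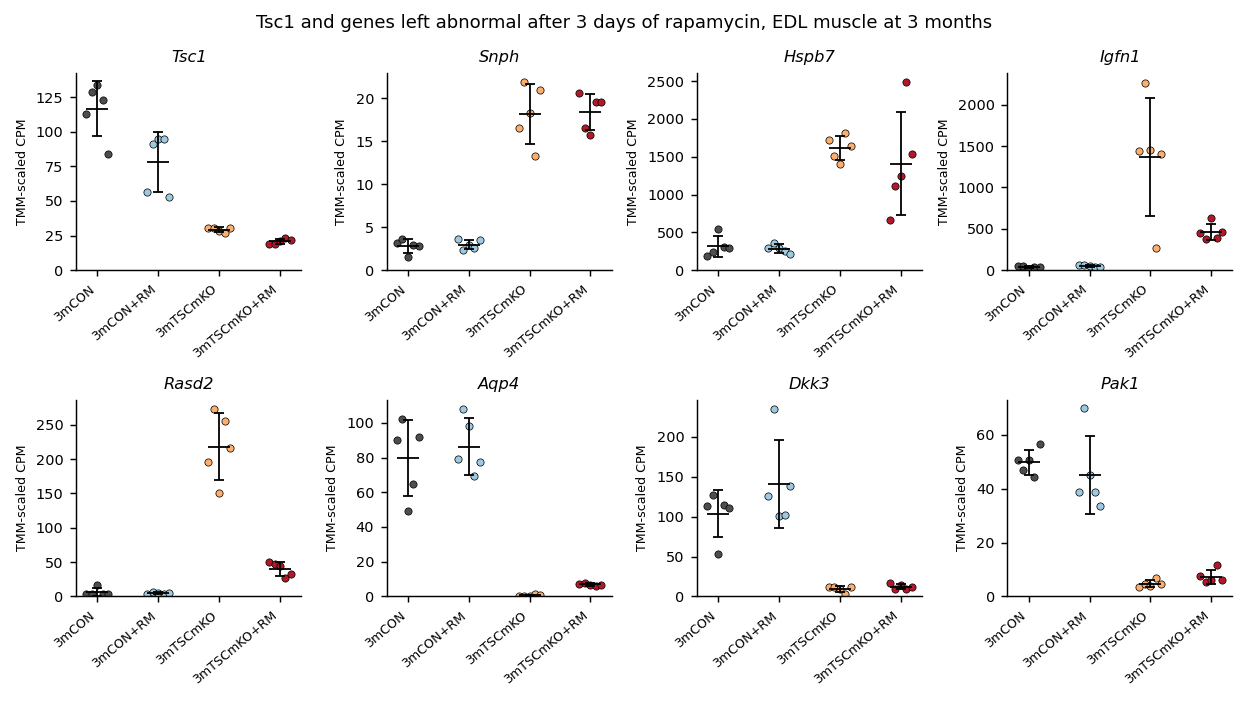
Levels of Tsc1 and 7 genes left abnormal, in TMM-scaled CPM on linear axes from 0, for the 4 groups at 3 months. Points are single mice, and bars show mean ± SD of 5. Snph, Hspb7 and Dkk3 lie at like levels in both knockout groups, whereas Igfn1, Rasd2 and Aqp4 move part of the way to the control.

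The next paragraphs take the pathways in turn. Each list was read against the background of 16.7% of genes called and a median log2 difference of −0.02 over all genes tested. The plot of called members shows all 35 lists, which held 1322 tested genes. With the 3-month libraries alone, 26 of the 70 counts (35 lists, 2 directions) were more than 1.5 times larger and 0 that much smaller, and 8 of the 14 counts of 1 or 2 moved that far without 1 of the libraries compared.

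**Figure D2:**
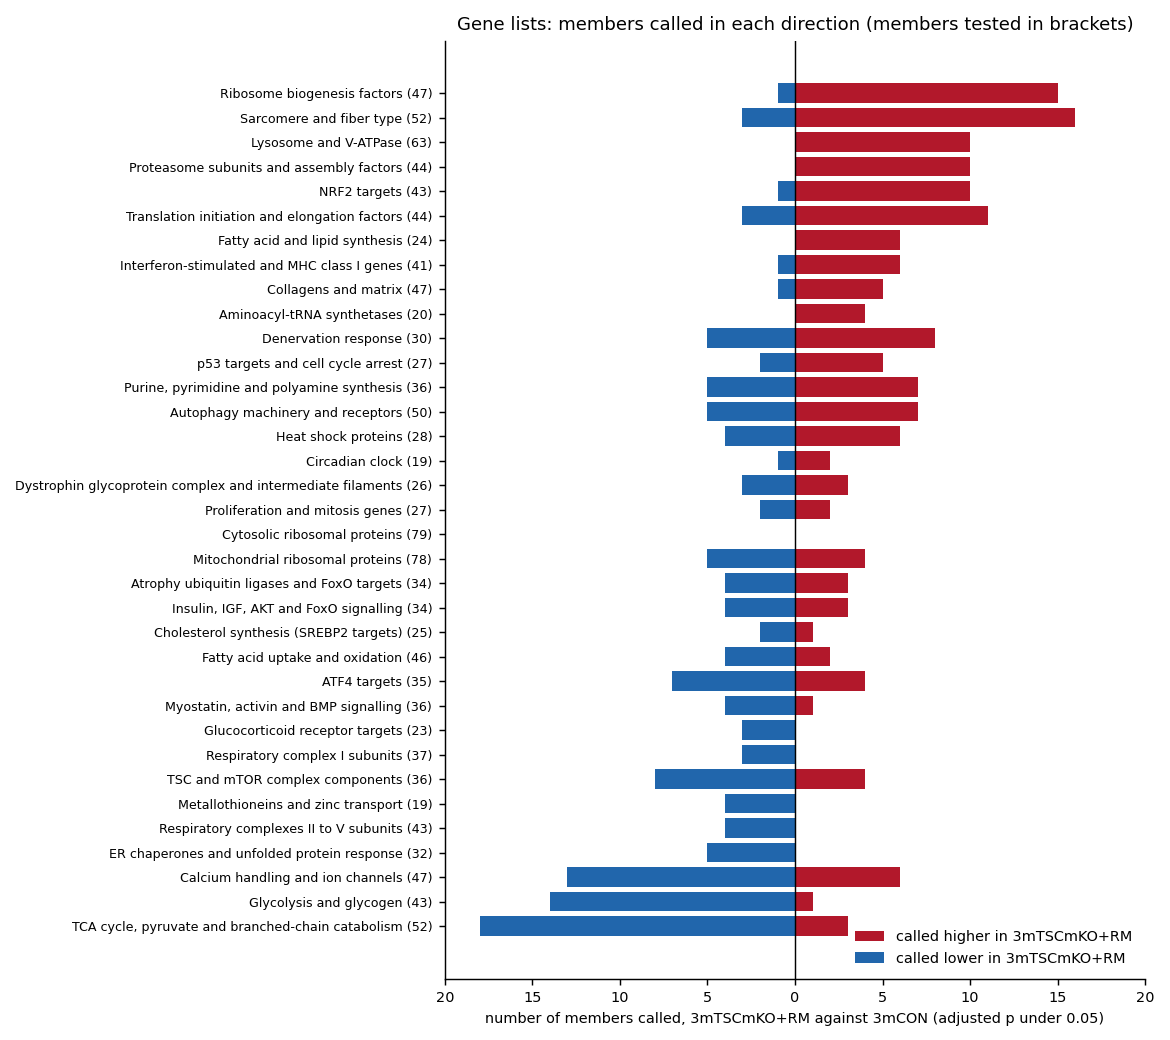
Number of members called higher (red, right) and lower (blue, left) in 3mTSCmKO+RM against 3mCON for 35 gene lists, with the members tested in brackets. By number called higher minus number called lower, the sarcomere list (16 and 3) and the ribosome biogenesis factors (15 and 1) lean furthest to higher levels. By the same measure, which ignores list size, the list of the TCA cycle, pyruvate and branched-chain catabolism (3 and 18) leans furthest to lower levels.

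Of 52 sarcomere genes tested, 16 were higher and 3 lower than the control (36.5% called, median log2 difference 0.44), against 7 and 4 in 3mTSCmKO (median 0.05). Of the 19 called, 11 were displaced, 5 left abnormal and 3 called beside the control alone. Flnc, the muscle filamin that crosslinks actin at the Z-disc, held 423, 425, 438, 475 and 590 CPM in 3mCON and 1060, 1720, 1930, 2530 and 3520 CPM in 3mTSCmKO+RM. The treated knockouts were spread widely, all above the controls and all above the highest vehicle-treated knockout at 1040 CPM. Its log2 fold change was 2.19 ± 0.286 (edgeR adjusted p = 5.39e-07), and rapamycin moved it further from the control (log2 fold change 1.37 against 3mTSCmKO). Actc1, the actin of the heart and of developing muscle, rose to 361 ± 215 CPM (SD, n = 5) from 70.7 ± 38.3 CPM, beside 607 CPM in 3mTSCmKO. Des, the intermediate filament that links Z-discs, held 2880, 2900, 3110, 3370 and 3500 CPM in 3mCON and 4760, 4900, 4990, 5290 and 6180 CPM in 3mTSCmKO+RM. These groups lay clearly apart, while 3mTSCmKO had a mean of 3280 CPM beside 3150 CPM in the control. Desmin thus differed by 0.73 ± 0.111 from the control after rapamycin (edgeR adjusted p = 7.13e-06) and by 0.06 before it (not called).

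The list of the dystrophin complex and intermediate filaments was called in both directions, 3 higher and 3 lower of 26 tested. Nes, the intermediate filament nestin, rose from 55.4 ± 5.17 to 104 ± 19.5 CPM (SD, n = 5). Ank1, an ankyrin that ties the sarcoplasmic reticulum to the sarcomere, fell from 630 ± 65 to 369 ± 46.7 CPM. The list of calcium handling and ion channels leaned downwards, with 13 of 47 lower and 6 higher (40.4% called, median −0.10), much as in 3mTSCmKO by count (13 and 5). Kcnn3, a small-conductance potassium channel, rose from 7.42 ± 1.10 to 22.9 ± 7.65 CPM, and Atp1b2, a sodium pump subunit, from 317 ± 27.8 to 617 ± 107 CPM. Atp2a2, the calcium pump of slow fibers and heart, held 48.7, 61.7, 68.6, 75.8 and 146 CPM in 3mCON and 75.4, 163, 210, 215 and 247 CPM in 3mTSCmKO+RM. The lowest treated knockout lay below the 2 highest controls, of which replicate 3 was the higher, and the difference of 1.18 ± 0.325 was called (edgeR adjusted p = 0.00892).

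Called genes of energy metabolism were mostly lower than in the control. Of 52 genes of the TCA cycle, pyruvate and branched-chain catabolism, 18 were lower and 3 higher (40.4% called, median −0.26), and of 43 genes of glycolysis and glycogen, 14 were lower and 1 higher (34.9% called, median −0.15). In 3mTSCmKO the lower and higher counts were 12 and 5 for the former list, and 7 and 7 for the latter. In 3mCON+RM against 3mCON they were 4 and 0 (median −0.135) for the former and 0 and 0 (median −0.0588) for the latter. Between the treated genotypes, 3mTSCmKO+RM against 3mCON+RM, they were 7 and 3 (median −0.132) and 7 and 1 (median −0.125). Of the TCA list, 11 called members were left abnormal, 6 displaced, 3 called beside the control alone and 1 overshot. Mut, the mitochondrial mutase at the end of propionate breakdown, fell from 118 ± 9.84 CPM (SD, n = 5) to 74.1 ± 9.92 CPM, and Got1, an aspartate aminotransferase of the malate shuttle, from 538 ± 85.6 to 331 ± 29.7 CPM. Me2, a mitochondrial malic enzyme, was among the 3 that were higher, at 7.49 ± 1.68 CPM against 4.74 ± 0.785 CPM. Pgam2, the phosphoglycerate mutase of muscle, fell from 1580 ± 163 to 741 ± 127 CPM and was at 1010 CPM in 3mCON+RM. Fbp2, the muscle fructose-bisphosphatase, fell from 34.1 ± 6.24 to 13.7 ± 4.85 CPM after a called rise from 6.93 CPM in 3mTSCmKO. Gpd1, which feeds glycerol phosphate to the shuttle and to lipid synthesis, fell from 704 ± 91.5 to 385 ± 62.5 CPM.

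Subunits of the respiratory chain had low medians with few calls. Of 37 subunits of complex I, 3 were called lower and 0 higher (8.11%, below the background, median −0.27), and of 43 subunits of complexes II to V, 4 were called lower and 0 higher (9.30%, median −0.24). With the 20 libraries of 3 months alone these counts were 16 and 13. They fell to 1 and 2 without 3mCON replicate 4, and the second also to 2 without 3mTSCmKO+RM replicate 4. Ndufs1, an iron-sulfur subunit of complex I, fell from 530 ± 62.9 CPM (SD, n = 5) to 335 ± 25.8 CPM, with 369 CPM in 3mTSCmKO. Atp5a1, a catalytic subunit of ATP synthase, fell from 2020 ± 184 to 1470 ± 104 CPM. Mitochondrial ribosomal proteins were called in both directions, 4 higher and 5 lower of 78 (11.5%), or 8 and 14 with the 3-month libraries alone. Mrps30 rose from 41.8 ± 4.30 to 65.6 ± 8.09 CPM and Mrpl42 fell from 299 ± 45.1 to 193 ± 11 CPM. Of 46 genes of fatty acid uptake and oxidation, 2 were higher and 4 lower (13%), the latter count being 2 without 3mCON replicate 2 or without 3mTSCmKO+RM replicate 4 or 5. The higher count was 1 without 3mCON replicate 2 or 4 or 3mTSCmKO+RM replicate 2 or 3, and the 20 libraries of 3 months alone gave 5 higher and 8 lower. Acads, the short-chain dehydrogenase of beta-oxidation, rose from 48.5 ± 4.41 to 79.3 ± 12.6 CPM, and Acsl6, which activates long-chain fatty acids, fell from 57.3 ± 7.37 to 35.2 ± 7.39 CPM.

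Genes of fatty acid and lipid synthesis rose in 6 of 24 cases and fell in 0 (25.0% called, median 0.14). Fasn, the fatty acid synthase, held 16.1, 19.7, 21.2, 24.2 and 55.6 CPM in 3mCON and 51.2, 70.1, 75.1, 114 and 217 CPM in 3mTSCmKO+RM. The highest control, replicate 3, overlapped the lowest treated knockout, and the difference of 1.94 ± 0.466 was called (edgeR adjusted p = 0.00303). Acaca, which makes malonyl-CoA for that synthesis, rose from 31.9 ± 7.75 CPM (SD, n = 5) to 65.5 ± 23.6 CPM, and Thrsp, a regulator of lipogenesis, from 8.41 ± 2.43 to 22.4 ± 5.01 CPM. In 3mCON+RM the means were 59.9 CPM for Fasn and 43.4 CPM for Acaca, neither of them called against 3mCON. Of 25 cholesterol synthesis genes, 1 was higher and 2 lower (12%). The higher count was 2 without 3mCON replicate 3, and the lower count 1 without 3mCON replicate 2 or 3 or 3mTSCmKO+RM replicate 2, 6 without 3mTSCmKO+RM replicate 1 and 6 with the 3-month libraries alone. In the fit of all libraries the 1 that rose was Cyp51, the lanosterol demethylase, from 6.12 ± 0.941 to 14.2 ± 0.956 CPM with 12.8 CPM in 3mTSCmKO.

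Factors that build ribosomes were called mostly higher. Of 47 ribosome biogenesis factors, 15 were higher and 1 lower (34.0% called, median 0.27), against 3 and 1 in 3mTSCmKO, and 10 of the 16 called were displaced. In 3mCON+RM against 3mCON, 1 was higher and 0 lower with a median of 0.16, and 3mTSCmKO+RM set against 3mCON+RM had 2 higher, 0 lower and a median of 0.04. Of the 79 cytosolic ribosomal proteins, 0 were called at the adjusted threshold by edgeR (median −0.11). At an unadjusted p below 0.05 1 of them was higher and 6 were lower, the DESeq2 Wald test called 1 lower, and edgeR on the 20 libraries of 3 months alone called 1 higher and 13 lower. Utp14a, a nucleolar protein of the small-subunit processome, held 15.7, 17.3, 18.1, 18.8 and 19.3 CPM in 3mCON and 32.2, 32.8, 37.7, 39.9 and 40.3 CPM in 3mTSCmKO+RM. The 2 groups were tight and separate, with a difference of 1.04 ± 0.110 (edgeR adjusted p = 6.88e-09). In 3mCON+RM Utp14a was also called higher than in 3mCON (mean 30.6 CPM, log2 fold change 0.78), and 3mTSCmKO+RM was not called against 3mCON+RM (log2 fold change 0.26, adjusted p = 0.141). Rrp12, a factor of ribosome export, rose from 37.1 ± 5.20 CPM (SD, n = 5) to 65.6 ± 4.20 CPM, and Bop1, a factor of the large subunit, from 14.5 ± 1.53 to 23.6 ± 2.82 CPM.

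Translation factors were called in 14 of 44 cases, 11 higher and 3 lower (31.8%, median 0.15), whereas in 3mTSCmKO 1 was higher and 6 were lower. The drug alone, in 3mCON+RM against 3mCON, left 5 higher and 0 lower (median 0.16), and between the treated genotypes, 3mTSCmKO+RM against 3mCON+RM, 3 were higher and 6 lower (median −0.10). Eif3b, a scaffold subunit of the initiation factor eIF3, rose from 81.5 ± 5.75 CPM (SD, n = 5) to 129 ± 6.75 CPM. Eef1a1, the elongation factor that delivers charged tRNA, rose from 478 ± 39.0 to 673 ± 56.8 CPM and stood at 735 CPM in 3mCON+RM, where it was called as well. Eif1ax, which helps to select the start codon, fell from 160 ± 13.7 to 115 ± 6.17 CPM. Of 20 aminoacyl-tRNA synthetases, 4 were higher and 0 lower (20%), 2 without 3mCON replicate 3 or without 3mTSCmKO+RM replicate 4. Vars, which charges valine tRNA, rose from 40.9 ± 4.06 to 87.4 ± 9.96 CPM.

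Of 44 proteasome genes, 10 were higher and 0 lower (22.7% called, median 0.19), near the 11 and 1 of 3mTSCmKO, and 16 and 1 when the 3-month libraries were fitted alone. Psmd4, a ubiquitin receptor of the proteasome, held 132, 138, 140, 156 and 167 CPM in 3mCON and 223, 276, 282, 314 and 320 CPM in 3mTSCmKO+RM. The groups did not overlap, and the log2 fold change was 0.95 ± 0.126 (edgeR adjusted p = 6.18e-07). Psmd11, a further lid subunit, rose from 119 ± 11.6 CPM (SD, n = 5) to 190 ± 25.4 CPM. Of 63 lysosomal and V-ATPase genes, 10 were higher and 0 lower (15.9% called, near the background, median 0.06), against 15 and 1 in 3mTSCmKO. Fitted on the 3-month libraries alone, 16 were higher and 1 lower. Hexa, a subunit of the enzyme that degrades gangliosides, rose from 39.9 ± 3.26 to 74.5 ± 4.64 CPM. Gaa, which degrades glycogen in lysosomes, rose from 281 ± 17.0 to 477 ± 52.9 CPM. Gusb, the lysosomal glucuronidase, was at 26.9 ± 5.45 CPM with rapamycin and 26.7 CPM in the vehicle-treated knockout, beside 15.1 ± 2.04 CPM in 3mCON. Autophagy genes were called in both directions, 7 higher and 5 lower of 50 (24.0%), the 5 being 3 without 3mCON replicate 3 or 3mTSCmKO+RM replicate 5. Atg7, which activates the LC3 conjugation system, rose from 9.14 ± 0.766 to 13.9 ± 2.65 CPM and Park2, the ubiquitin ligase parkin, from 8.43 ± 1.49 to 13.2 ± 1.56 CPM.

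The CLEAR element (TCACGTGA, which reads the same on both strands) is bound by TFEB and its relatives at lysosomal genes. Within the 250 bases before the start it was found in 6 of 48 lysosomal genes matched (12.5%) and in 0.907% of 27025 genes of the RefSeq table. Of the 7 called members matched, 1 held it. This was Ctsd, which encodes the protease cathepsin D and rose from 514 ± 62.6 to 747 ± 86.7 CPM (SD, n = 5) with 964 CPM in 3mTSCmKO. Its window, GRCm38.p6 chr7:142387828-142388077 on the minus strand, is shown 5′ to 3′ with the element in capitals, since it is the called lysosomal gene that carries the motif.
Ctsd: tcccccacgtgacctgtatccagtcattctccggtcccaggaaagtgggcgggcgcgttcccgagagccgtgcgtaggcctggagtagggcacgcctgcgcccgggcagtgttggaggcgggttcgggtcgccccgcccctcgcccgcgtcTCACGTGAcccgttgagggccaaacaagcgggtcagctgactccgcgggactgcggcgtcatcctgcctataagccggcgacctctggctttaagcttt
The element begins 99 bases before the start.

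The mTOR machinery itself was called in 12 of 36 genes, 4 higher and 8 lower (33.3%), counting Tsc1. Flcn, the folliculin that relays amino acid status to the Rag GTPases, fell from 71.7 ± 10.6 CPM (SD, n = 5) to 34.4 ± 4.85 CPM, with 52.0 CPM in 3mTSCmKO, and Fnip1, its partner, from 199 ± 32.6 to 108 ± 26.5 CPM with 261 CPM in 3mTSCmKO. Deptor, a subunit that inhibits mTOR, was left low at 82.1 ± 8.85 CPM, beside 145 ± 31.7 CPM in 3mCON and 60.1 CPM in 3mTSCmKO. Of 34 genes of insulin, IGF, AKT and FoxO signalling, 3 were higher and 4 lower (20.6%), the 4 being 2 without 3mCON replicate 5 or 3mTSCmKO+RM replicate 4. Pik3r2, a regulatory subunit of PI3-kinase, rose from 18.3 ± 1.89 to 27.2 ± 2.19 CPM.

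Of 35 targets of ATF4, a transcription factor of amino acid stress, 15 were higher and 2 lower in 3mTSCmKO (median 0.52), whereas 4 were higher and 7 lower in 3mTSCmKO+RM (31.4% called, median −0.02). The drug alone, in 3mCON+RM against 3mCON, left 0 higher and 2 lower (median −0.15). Between the treated genotypes, 3mTSCmKO+RM against 3mCON+RM, 6 were higher and 2 lower (median 0.08). Mthfd2, a mitochondrial enzyme of folate metabolism, fell from 22.8 CPM in 3mTSCmKO to 7.05 ± 1.9 CPM (SD, n = 5), still above 3.52 ± 0.684 CPM in 3mCON. Slc6a9, a glycine transporter, remained at 8.86 ± 2.42 CPM beside 4.15 ± 0.942 CPM in 3mCON. Chac1, which degrades glutathione, held 39.9, 43.4, 70.8, 97.3 and 100 CPM in 3mCON and 14.8, 20.7, 21.7, 31.9 and 52.1 CPM in 3mTSCmKO+RM. The highest treated knockout overlapped the lower controls, and the fall of 1.32 ± 0.341 was called (edgeR adjusted p = 0.00524). Its mean in 3mCON+RM was 47.6 CPM. Slc38a2, the amino acid transporter SNAT2, fell from 133 ± 25.0 to 72.7 ± 13.1 CPM.

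The composite element bound by ATF4 with C/EBP factors was searched as TGATGNAA on both strands in the same windows. It was found in 8 of 32 matched ATF4 targets (25.0%) and in 3.91% of all genes of the RefSeq table. Of the 8 called members matched, 2 held it. These, Chac1 and Vldlr, both ended below the control, and they are shown for that reason, with the element in capitals (here as its reverse complement). Vldlr, a lipoprotein receptor, rose to 1505 CPM in 3mTSCmKO from 871 ± 98.4 CPM (SD, n = 5) and ended at 560 ± 63.6 CPM, so that it overshot. In 3mCON+RM its mean was 636 CPM. The Chac1 window is GRCm38.p6 chr2:119350992-119351241 on the plus strand and the Vldlr window chr19:27216770-27217019 on the plus strand.
Chac1: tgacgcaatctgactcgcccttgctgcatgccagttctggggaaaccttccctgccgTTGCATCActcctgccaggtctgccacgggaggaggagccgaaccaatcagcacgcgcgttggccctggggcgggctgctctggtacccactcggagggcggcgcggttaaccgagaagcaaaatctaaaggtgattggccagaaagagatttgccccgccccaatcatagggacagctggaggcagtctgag
Vldlr: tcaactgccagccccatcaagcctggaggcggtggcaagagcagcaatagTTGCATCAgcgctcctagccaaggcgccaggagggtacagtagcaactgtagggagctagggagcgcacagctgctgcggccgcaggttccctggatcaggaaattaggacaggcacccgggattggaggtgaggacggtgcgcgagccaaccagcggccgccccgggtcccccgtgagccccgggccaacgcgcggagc
The capitals begin 193 bases before the start in Chac1 and 200 bases before it in Vldlr.

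Of 32 chaperones and stress genes of the endoplasmic reticulum, 5 were lower and 0 higher (15.6% called, near the background, median −0.11), against 0 lower and 9 higher in 3mTSCmKO. The count was 3 without 3mCON replicate 5 or 3mTSCmKO+RM replicate 1. Hspa5, the chaperone BiP, held 197, 214, 233, 243 and 270 CPM in 3mCON, 292, 322, 327, 359 and 462 CPM in 3mTSCmKO, and it held 118, 123, 146, 157 and 188 CPM in 3mTSCmKO+RM. All vehicle-treated knockouts were above the controls and all treated ones below them, with a final log2 difference of −0.66 ± 0.119 (edgeR adjusted p = 8.91e-05). The mean of Hspa5 in 3mCON+RM, 172 CPM, was below the lowest 3mCON value as well. Heat shock proteins were called in both directions, 6 higher and 4 lower of 28 (35.7%). Hspb1, the small heat shock protein HSP27, rose from 71.9 ± 11.2 CPM (SD, n = 5) to 255 ± 90.7 CPM, further than the 145 CPM of 3mTSCmKO. Dnaja4, a co-chaperone, rose from 124 ± 16.3 to 234 ± 62.1 CPM. Hspd1, the mitochondrial chaperonin, fell from 284 ± 36.7 to 167 ± 45.6 CPM. The lower count of that list was 1 without 3mCON replicate 2 or 3mTSCmKO+RM replicate 5 and 2 without 3mCON replicate 1, 3, 4 or 5 or 3mTSCmKO+RM replicate 1 or 4.

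Of 43 targets of NRF2, a transcription factor of the antioxidant response, 10 were higher and 1 lower (25.6% called, median 0.10), beside 9 and 0 in 3mTSCmKO. The 10 were 6 without 3mCON replicate 1. Aox1, an aldehyde oxidase, rose from 28.7 ± 4.06 CPM (SD, n = 5) to 44.0 ± 5.45 CPM and Abcc1, an exporter of conjugates, from 46.2 ± 4.43 to 70.2 ± 13.1 CPM. The core of the antioxidant response element, TGACNNNGC on either strand, was found in 10 of 38 matched targets (26.3%) and in 11.5% of all genes of the RefSeq table. Of the 9 called targets matched, 1 held it. This was Abcc4, an exporter of cyclic nucleotides, which was the member that fell, from 31.8 ± 6.34 to 21.6 ± 1.63 CPM. Its window, shown because it goes against the direction of the list, is GRCm38.p6 chr14:118706220-118706469 on the minus strand, with the reverse complement of the core in capitals.
Abcc4: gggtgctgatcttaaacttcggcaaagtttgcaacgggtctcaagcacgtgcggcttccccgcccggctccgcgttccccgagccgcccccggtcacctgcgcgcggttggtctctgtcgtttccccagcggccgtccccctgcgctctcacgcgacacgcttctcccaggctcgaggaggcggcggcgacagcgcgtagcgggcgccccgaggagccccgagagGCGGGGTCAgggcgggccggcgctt
The core begins 25 bases before the start.

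Of 27 targets of p53 and genes of cell cycle arrest, 5 were higher and 2 lower (25.9% called, median 0.22), beside 12 and 0 in 3mTSCmKO. Eda2r, a receptor of the TNF receptor family, held 15.9, 16.2, 16.8, 16.9 and 30.1 CPM in 3mCON and 41.1, 61.7, 71.0, 99.9 and 147 CPM in 3mTSCmKO+RM. The high control was replicate 3, and no values overlapped (log2 fold change 2.13 ± 0.294, edgeR adjusted p = 1.9e-06). Its mean was 67.2 CPM in 3mTSCmKO, and rapamycin was not called to change it. Zmat3, an RNA-binding p53 target, rose from 15.5 ± 1.47 CPM (SD, n = 5) to 35.8 ± 6.15 CPM, and Tigar, which restrains glycolysis, overshot downwards from 158 CPM in 3mTSCmKO to 74.8 ± 7.05 CPM, beside 108 ± 3.24 CPM in 3mCON. In 3mCON+RM Tigar was at 97.4 CPM.

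Atrophy ligases and FoxO targets, of which 17 were higher and 1 lower in 3mTSCmKO, had 3 higher and 4 lower of 34 in 3mTSCmKO+RM (20.6% called, median 0.00). Trim55, the ligase MuRF2, fell from 82.8 ± 9.56 CPM (SD, n = 5) to 47.6 ± 4.89 CPM. Glucocorticoid receptor targets went from 10 higher and 0 lower in 3mTSCmKO to 0 higher and 3 lower of 23 (13% called, median −0.15). Klf15, a transcription factor of both lists, went from 64.4 CPM in 3mTSCmKO to 25.1 ± 4.15 CPM, beside 42.2 ± 6.93 CPM in 3mCON and 36.2 CPM in 3mCON+RM. Klf9, a related factor, fell from 258 ± 13.5 to 172 ± 19.4 CPM. Denervation genes went from 2 higher and 7 lower in 3mTSCmKO to 8 higher and 5 lower of 30 (43.3% called, median 0.12). Ankrd1, a stretch-responsive ankyrin repeat protein, held 20, 22.7, 27.0, 34.5 and 37.7 CPM in 3mCON and 47.8, 117, 184, 255 and 354 CPM in 3mTSCmKO+RM. The treated knockouts covered a wide range that began above the highest control, with a difference of 2.75 ± 0.492 (edgeR adjusted p = 0.000107). Cdh15, the M-cadherin of satellite cells and young fibers, rose from 17.8 ± 1.79 to 33.6 ± 7.39 CPM. Dach2, a corepressor that falls with denervation in muscle, was lower at 1.40 ± 0.769 CPM against 5.70 ± 2.68 CPM. Musk, a further member of this list, was also called lower, at 5.08 ± 1.23 CPM against 8.61 ± 4.46 CPM. That call was lost under 12 of the 19 alternatives.

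Synthesis of purines, pyrimidines and polyamines was called in 12 of 36 genes, 7 higher and 5 lower (33.3%), the 7 being 4 without 3mCON replicate 4 or 3mTSCmKO+RM replicate 4. The called members of the polyamine route went in both directions. Amd1, which decarboxylates S-adenosylmethionine for that route, held 396, 461, 599, 609 and 1100 CPM in 3mCON and 130, 173, 200, 211 and 257 CPM in 3mTSCmKO+RM. All treated knockouts lay below all controls (log2 fold change −1.71 ± 0.268, edgeR adjusted p = 1.25e-05). Srm, the spermidine synthase, rose from 6.47 ± 1.06 CPM (SD, n = 5) to 12.4 ± 2.20 CPM. Atic, which completes purine synthesis, rose from 20.7 ± 1.99 to 33.3 ± 3.16 CPM.

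Interferon-stimulated and MHC class I genes were higher in 6 and lower in 1 of 41 cases (17.1%, near the background), and all 6 were left abnormal. Irf7, the master factor of that response, was at 5.98 ± 2.11 CPM (SD, n = 5) beside 2.50 ± 0.545 CPM in 3mCON and 8.48 CPM in 3mTSCmKO, and Oasl2 at 8.27 ± 2.77 CPM beside 3.65 ± 0.921 CPM. Collagens and matrix genes were higher in 5 and lower in 1 of 47 cases (12.8%). The 5 were 2 without 3mCON replicate 3 or 4 or 3mTSCmKO+RM replicate 5, and 3 without 3mTSCmKO+RM replicate 2 or 3. Lamb2, the laminin chain enriched at synapses, rose from 152 ± 16.4 to 221 ± 32.1 CPM. Of 36 genes of myostatin, activin and BMP signalling, 1 was higher and 4 lower (13.9%), the 4 being 2 without 3mCON replicate 2 or 3mTSCmKO+RM replicate 3 or 4. The higher count was 0 without 3mCON replicate 2, 3 or 4 or 3mTSCmKO+RM replicate 4 or 5. Bmpr1b, a BMP receptor, fell from 11.9 ± 4.12 to 3.91 ± 1.64 CPM and Gdf11, a relative of myostatin, from 17.4 ± 2.51 to 9.56 ± 1.98 CPM. Of 19 clock genes, 2 were higher and 1 lower (15.8%), the lower count being 0 without 3mCON replicate 2 and 2 without 3mTSCmKO+RM replicate 1. Cry2, a repressor of the clock, was higher at 76 ± 8.01 CPM beside 40.7 ± 6.92 CPM. Of 19 metallothionein and zinc transport genes, 0 were higher and 4 lower (21.1%), 2 without 3mCON replicate 4. The 3-month libraries alone gave 2 higher and 7 lower, and the replicate block 1 higher and 5 lower. Slc30a9, a zinc transporter of mitochondria, fell from 180 ± 12.8 to 115 ± 10.7 CPM. Of 27 genes of proliferation and mitosis, 2 were higher and 2 lower (14.8%), with Mcm4, a helicase subunit, at 7.51 ± 0.583 CPM beside 5.27 ± 0.786 CPM, and Aurka, a mitotic kinase, at 4.51 ± 1.06 CPM beside 9.88 ± 1.35 CPM.

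**Figure D3:**
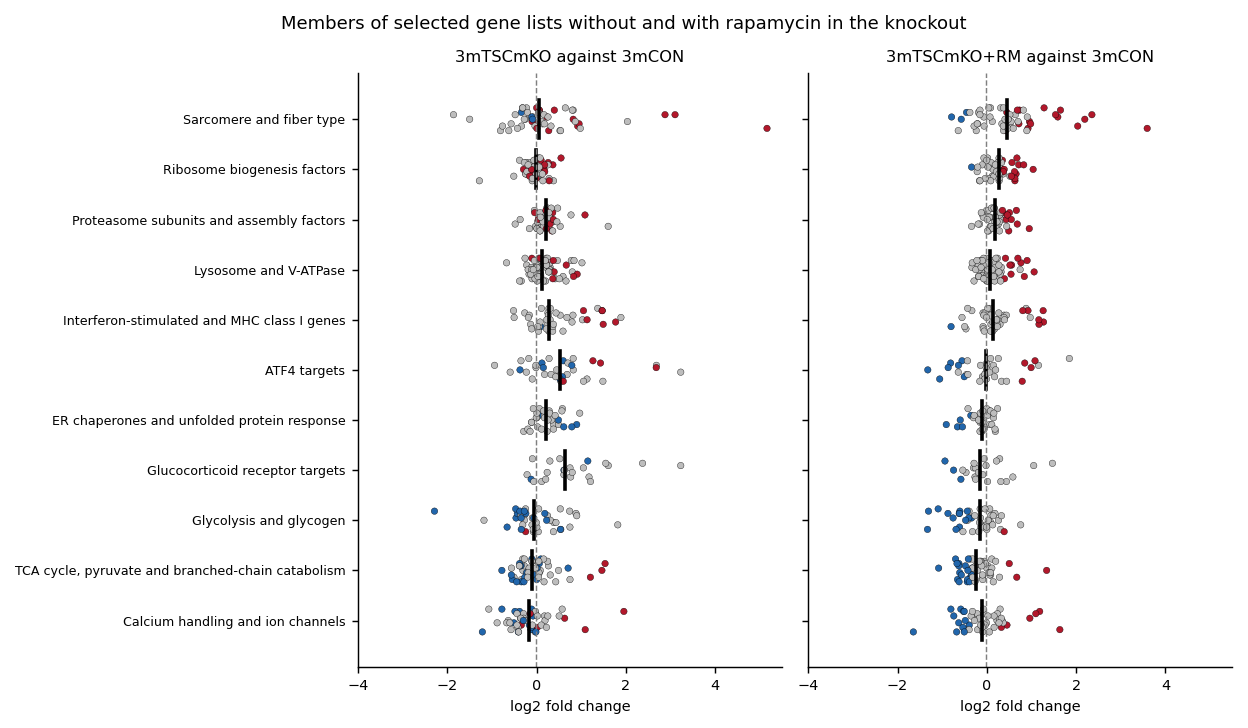
Log2 fold change of every tested member of 11 lists against 3mCON, for 3mTSCmKO (left) and 3mTSCmKO+RM (right). In both panels red and blue mark members called higher and lower in 3mTSCmKO+RM, black bars are list medians and dashed lines the median of all genes. The sarcomere median moves from 0.05 to 0.44, and the medians of ATF4 and glucocorticoid receptor targets move from 0.52 and 0.62 to −0.02 and −0.15.

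Overshoot was seen in both directions. Tpx2, a spindle protein, went from 46.9 CPM in 3mTSCmKO to 1.73, 1.99, 2.48, 2.70 and 3.26 CPM, beside 4.98, 5.24, 5.64, 6 and 7.44 CPM in 3mCON. It ended below every control, while its mean in 3mCON+RM was 2.92 CPM and the treated groups were not called against each other.

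Bcat2, the mitochondrial enzyme that starts the breakdown of branched-chain amino acids, held 46.6, 49.8, 56.9, 59.3 and 68.1 CPM in 3mCON and 16.9, 23.3, 29.5, 29.6 and 33.4 CPM in 3mTSCmKO+RM. The 3mTSCmKO mean was 91.6 CPM, so that values lay above and then below the control range, and the final difference was −1.08 ± 0.167 (edgeR adjusted p = 8.74e-06). The mean of Bcat2 in 3mCON+RM, 37.1 CPM, also lay below the range of 3mCON. Glul, which makes glutamine, held 409, 430, 505, 585 and 651 CPM in 3mCON and 238, 261, 268, 279 and 298 CPM in 3mTSCmKO+RM, against a mean of 1140 CPM in 3mTSCmKO. Treated knockouts spanned a narrower range than controls and lay below all of them (log2 fold change −0.94 ± 0.198, edgeR adjusted p = 0.000632). The mean of Glul in 3mCON+RM, 387 CPM, was below the lowest 3mCON value as well. Zranb1, a deubiquitinase, fell from 108 CPM in 3mTSCmKO to 35.8 ± 0.950 CPM (SD, n = 5), beside 65.9 ± 3.49 CPM in 3mCON and 54.1 CPM in 3mCON+RM, against which it was called. Pkdcc, a secreted kinase, and Slc25a33, a pyrimidine carrier of mitochondria, fell from 93.6 and 39.5 CPM to 32.3 and 11.7 CPM, beside 61.4 and 21.7 CPM in 3mCON. Tmem140 went from 128 to 42.1 CPM, beside 80.2 CPM in 3mCON and 49.2 CPM in 3mCON+RM.

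Overshoot upwards was smaller in number. Adamts20, a secreted metalloprotease, held 6.78, 7.38, 8.55, 10.7 and 10.9 CPM in 3mCON and 11.3, 16.3, 22.8, 26.4 and 28.3 CPM in 3mTSCmKO+RM, after a mean of 4.96 CPM in 3mTSCmKO. The lowest treated knockout stood just above the highest control, with a difference of 1.25 ± 0.213 (edgeR adjusted p = 3.73e-05), and 3mTSCmKO+RM was also called above 3mCON+RM (log2 fold change 1.13). Padi2, which turns arginine into citrulline in proteins, went from 130 CPM in 3mTSCmKO to 377 ± 26.2 CPM (SD, n = 5), beside 262 ± 23.5 CPM in 3mCON and 276 CPM in 3mCON+RM. Bex1, a small adaptor of neurotrophin signalling, went from 3.49 to 16.6 ± 4.15 CPM, beside 7.76 ± 0.860 CPM in 3mCON and 12.8 CPM in 3mCON+RM. Of its 31-mers, 29.8% occur in other genes of the table, so that its count is less certain. Dglucy, a glutamate cyclase, went from 19.3 to 55.2 ± 2.61 CPM, beside 29.4 ± 2.88 CPM in 3mCON, and was called in 3mCON+RM too at 50.1 CPM. Pex6, a peroxisomal ATPase, Rnf31, a ligase of linear ubiquitin chains, and Gdi2, a regulator of Rab GTPases, ended at 32.1, 25.7 and 232 CPM, beside 20.2, 17.0 and 154 CPM in 3mCON. C530005A16Rik, a non-coding transcript, ended at 5.17 CPM beside 2.65 CPM.

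**Figure D4:**
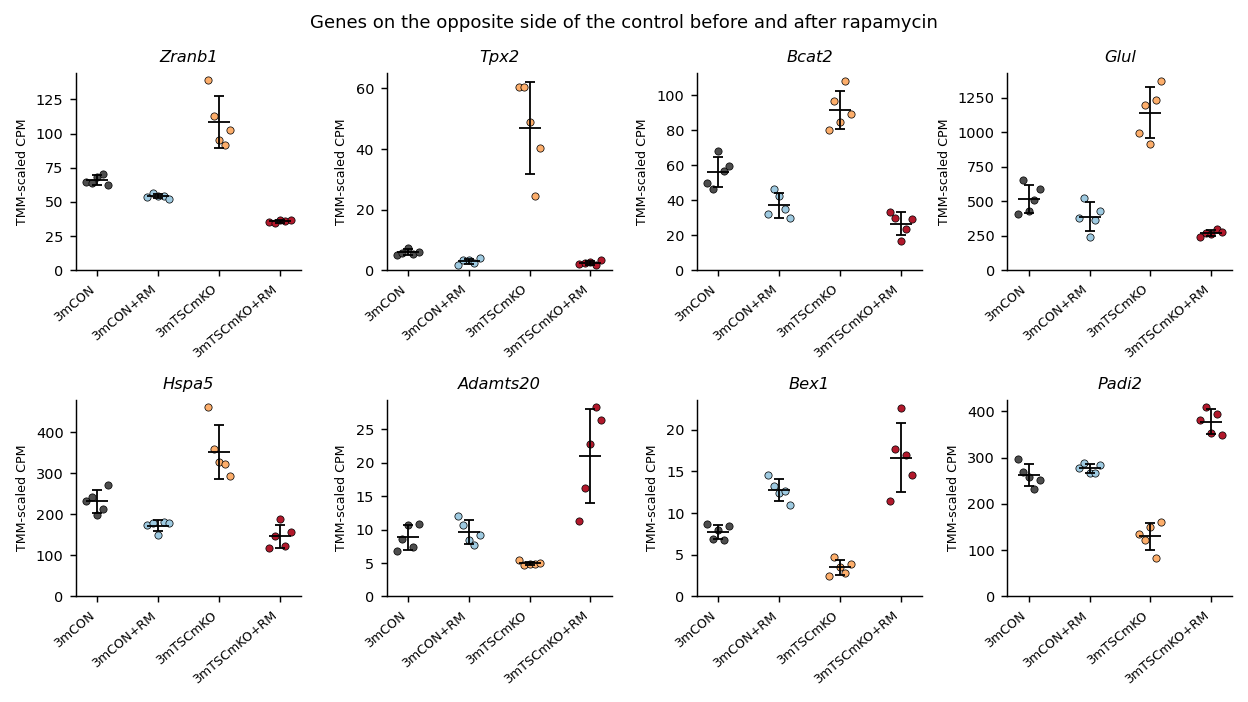
Levels of 8 overshooting genes in TMM-scaled CPM (linear axes from 0), with points for single mice and bars for mean ± SD of 5. In each panel the control lies between the knockout without and with rapamycin.

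The displaced genes described next had no overlap between treated knockout and control. Rgcc, a regulator of the cell cycle that responds to complement, held 15.1, 16.9, 19.9, 21.9 and 26.1 CPM in 3mCON and 60.8, 89.4, 118, 122 and 146 CPM in 3mTSCmKO+RM. The lowest treated knockout exceeded the highest control by far, while 3mTSCmKO had a mean of 30.6 CPM and 3mCON+RM of 21.3 CPM. The difference was 2.42 ± 0.287 (edgeR adjusted p = 9.92e-08). Arvcf, a catenin of cell junctions, rose from 16.2 ± 2.01 CPM (SD, n = 5) to 54.5 ± 12.5 CPM, with 18 CPM in 3mTSCmKO and 20 CPM in 3mCON+RM, and was called against both. Cpne2, a calcium-dependent membrane binding protein, rose from 7.70 ± 0.984 to 27.7 ± 9.00 CPM and Ttc25, a protein of motile cilia, from 2.02 ± 0.271 to 6.64 ± 3.10 CPM. The non-coding 2410006H16Rik and Gm42047 rose to 10.3 and 20.2 CPM from 2.82 and 4.56 CPM, and both were also called in 3mCON+RM, at 7.66 and 16.4 CPM. Of the 31-mers of Gm42047, 48.9% occur in other genes. 9330102E08Rik, a lincRNA, rose to 7.67 CPM from 2 CPM.

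Tfrc, the transferrin receptor that imports iron (chromosome 16, 32608920 to 32632794, plus strand, GRCm38), held 155, 226, 229, 238 and 335 CPM in 3mCON and 27.4, 28.1, 44.7, 50.9 and 52.0 CPM in 3mTSCmKO+RM. The groups were widely apart, and the log2 fold change was −2.54 ± 0.248 (edgeR adjusted p = 1.40e-09). In 3mTSCmKO it was 157 CPM, not called against the control (log2 fold change −0.59, adjusted p = 0.0738), and in 3mCON+RM it was 208 CPM. Nmrk2, which makes the NAD precursor nicotinamide mononucleotide in muscle, held 105, 114, 155, 190 and 190 CPM in 3mCON and 18.7, 30.6, 49.8, 51.4 and 62.5 CPM in 3mTSCmKO+RM. All treated knockouts were below all controls, by 1.82 ± 0.392 on the log2 scale (edgeR adjusted p = 0.000952), and the mean was 73.6 CPM in 3mCON+RM, which was not called. Eya1, a coactivator that with partner homeodomain proteins drives the fast fiber program, fell from 62.2 ± 4.85 CPM (SD, n = 5) to 20.3 ± 6.35 CPM, with 49.3 CPM in 3mTSCmKO. Pde7a, a phosphodiesterase of cyclic AMP, fell from 122 ± 12.1 to 44.8 ± 5.34 CPM and was called in 3mCON+RM as well, at 84.7 CPM. Ostn, the muscle-secreted peptide musclin, fell from 11.9 ± 5.39 to 2.71 ± 0.511 CPM, Dupd1, a dual-specificity phosphatase, from 18.4 ± 3.65 to 5.63 ± 0.932 CPM, and Tfcp2l1, a transcription factor, from 8.98 ± 5.22 to 2.49 ± 0.724 CPM.

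**Figure D5:**
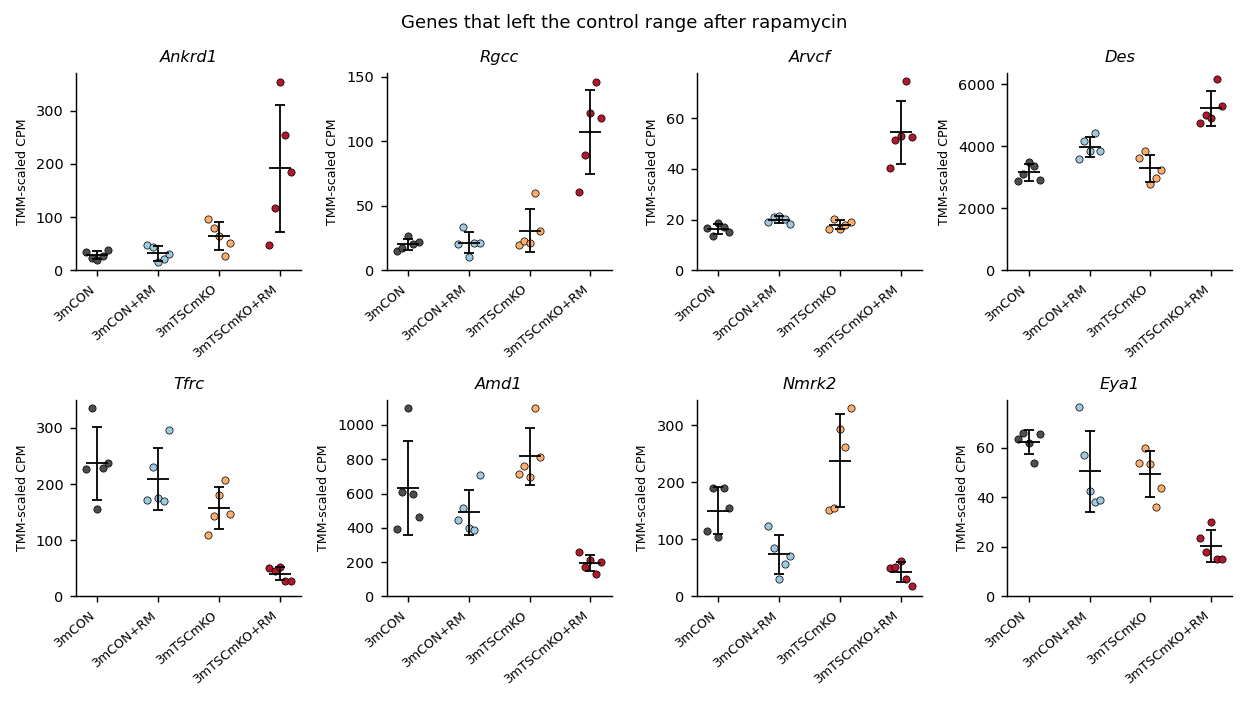
Levels of 8 displaced genes in TMM-scaled CPM (linear axes from 0), with points for single mice and bars for mean ± SD of 5. 3mTSCmKO+RM lies above all other groups for Arvcf and Des and below them for Tfrc and Eya1, while 3mTSCmKO overlaps 3mCON.

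The same difference at 9 months (9mTSCmKO+RM against 9mCON, 5 mice each) was tested against that at 3 months in the common fit. It differed for 234 genes, 1.73% of those tested, of which 12 are among the 175 genes considered by name. Dkk3 was further from the control at 9 months, with a log2 fold change of −4.69 there beside −3.08 at 3 months (edgeR adjusted p of the difference = 0.0232). Glul and Dglucy, which overshot at 3 months, differed from the control by 0.12 and −0.09 at 9 months, neither of them called (adjusted p of the difference between ages = 0.0381 and 0.00585). Age and library preparation cannot be told apart in these labels.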

How the data were processed

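Poly(A) RNA of whole EDL muscle was sequenced as directional single-end reads of 50 nt. The authors trimmed reads with Cutadapt 1.9.1, assigned them with kallisto 0.43.1 to transcripts of Ensembl release 92 (GRCm38), split reads that hit several transcripts evenly and summed them per gene. The deposited tables hold these estimated counts as whole numbers and, separately, TPM values by the authors. TPM values served for the summed levels of markers alone. Because split reads are shared between similar genes, the share of a gene's 31-mers found in other genes was computed. Of 22844 genes, the 13543 with at least 1 CPM in at least 5 of the 40 libraries were tested with edgeR 4.0.16 (R 4.3.3): TMM scaling, 1 fit of 8 group means, robust quasi-likelihood test, two-sided, with Benjamini-Hochberg adjustment over all genes tested and a threshold of 0.05. All log2 fold changes, SEs and adjusted p-values come from this fit, and levels are TMM-scaled CPM. The fit was tested on simulated data. Each library is 1 mouse.

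In every library the genes tested covered 99.9% of the total or more. Genes were named by rule: Tsc1, the largest called rises and falls overall and in each class (mean of at least 5 CPM in the higher group, no overlap between groups), and in each list with at least 3 called members up to 4 with the largest change. Of the genes so chosen, 175 in all, a part is described. Ctsd, Chac1, Vldlr and Abcc4 are shown as the called list members whose promoter held the motif searched, and Scx as the single tendon marker called. The comparison, the lists and the rules were chosen with earlier results of these data known. Gene positions are from GENCODE M21 (GRCm38) and promoters from RefSeq (GRCm38.p6). Alternatives were DESeq2 1.42.0, other scalings, no filter, fits of fewer libraries, insert size or replicate number as a term, and leaving out each library. Some genes chosen by the rule are not reported here.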

Additional observations from a re-analysis of the deposited data

Results flagged for a closer look

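For the 175 genes chosen by rule, 350 groups of 5 libraries were examined, and in 31 a library lay far from the other 4. Chance flags about 1 in 20 groups. In 3mCON the library was replicate 3 for 15 genes: Gm11967 at 1.65 CPM, Rasd2 at 17.2 CPM, Dkk3 at 53.2 CPM, Ostn at 21.3 CPM, 9330102E08Rik at 2.4 CPM, Eprs at 238 CPM, Calr at 189 CPM, Dnaja4 at 153 CPM, Tkt at 15.2 CPM, Fasn at 55.6 CPM, Slc25a1 at 7.39 CPM, Trim55 at 66.3 CPM, Klf15 at 54.4 CPM, Eda2r at 30.1 CPM and Atp2a2 at 146 CPM. In other controls Aox1 stood apart at 21.8 CPM, Oasl2 at 2.09 CPM, Ifit3 at 3.09 CPM and Mrc1 at 28.4 CPM. Of the 31-mers of Ifit3, 61.8% occur in other genes, and of those of Gbp6, given further on, 74.1%, so that their counts are uncertain.

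In 3mTSCmKO+RM a single mouse stood apart for Neto2 at 3.18 CPM, Tmem140 at 61.9 CPM, Rnf31 at 29.9 CPM, Gusb at 36.2 CPM, Fbp2 at 22.2 CPM, Bmpr1b at 6.75 CPM, Mcm4 at 8.52 CPM, Cd68 at 15.1 CPM, Tkt at 32.6 CPM, Slc25a1 at 19.7 CPM, Acaca at 106 CPM and Psmd2 at 305 CPM.

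The difference between treated knockout and control was called to differ between ages for 12 of these genes, by edgeR's quasi-likelihood test of the interaction. On the log2 scale, the 9-month difference minus the 3-month difference was 1.71 for Rab15, −1.61 for Dkk3, −1.0 for Dglucy, 1.06 for Glul, 0.64 for Pde7a, 1.09 for Me2, 2.39 for Atp2a2 and 1.08 for Gbp6. It was −1.18 for Loxl1, −2.16 for C1qb, −1.88 for C1qc and −1.69 for Mrc1. The last 3 are macrophage markers, which had log2 fold changes of 1.05, 0.96 and 0.92 at 3 months, calls that were lost under 4, 7 and 9 of the 19 alternatives, and log2 fold changes of −1.12, −0.92 and −0.77 at 9 months, the last of them not called. Age and library preparation cannot be told apart.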

How the results depend on the processing

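Counts rose where fewer groups set the spread. With the 20 libraries of 3 months alone, 3814 genes were called (1923 higher, 1891 lower), 1497 left abnormal, 278 overshooting and 1410 displaced. With a filter of their own these libraries gave 3702 (1967 and 1735), 1459, 274 and 1393, with insert size as a term 3828 (1927 and 1901), 1479, 259 and 1397, and the 10 libraries of both groups 3740 (1950 and 1790). The cause was not tested. DESeq2's Wald test called 2473 genes, DESeq2 size factors 2254, upper-quartile scaling 2330 and no filter 1958. Leaving out each of the 10 libraries of 3mCON and 3mTSCmKO+RM in turn gave 1839 to 2108 genes called, 1003 to 1171 higher and 827 to 996 lower. Leaving out each of these or of the 3mTSCmKO libraries gave 637 to 819 left abnormal, 76 to 106 overshooting and 643 to 857 displaced. Of the 175 genes chosen by rule, 143 were called under all 19 alternatives run for them, 32 lost their call under at least 1, and 0 changed direction. No alternative moved the median log2 difference by more than 0.0172.

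No pairing of the mice by replicate number was seen: deviations of same-numbered libraries correlated at −0.211, −0.0829, −0.00982, −0.0789 and 0.0572. Libraries of differing numbers correlated at −0.166 to 0.299, a spread in which a weak pairing could go unseen. With the replicate block 2335 genes were called (1267 higher, 1068 lower), 851 left abnormal, 116 overshooting and 886 displaced.

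Depth of 10988960 counts in the shallowest control limits genes near 1 CPM, and 5 mice per group limit small differences.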
